A study of Mus musculus with 9 samples.

Results

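The TRIM (tripartite motif) genes encode a large protein family of a RING domain, 1 or more B-boxes and a coiled coil, and most members are E3 ubiquitin ligases. Its members were taken as the rows whose symbol is Trim followed by a number and at most 1 letter, with at least 100 raw counts summed over the 9 libraries. This rule kept 42 of the 68 rows named in this way, among 51826 rows in all. The other 26 fell below 100 counts, and 14 of them had no count in any library. Trim69 (83 counts) and Trim12a (49 counts) were the highest below the threshold. Trim67 had 10, 14 and 2 counts in the vehicle libraries and 0 in the other 6. All 42 members were among the 14458 genes tested.

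RNA-seq was made from RAW 264.7, an established mouse macrophage-like line that grew from a tumour induced by a leukaemia virus. Cells received vehicle, lipopolysaccharide (LPS) at 300 ng/mL for 6 h, or calycosin at 100 µg/mL for 24 h and then the same LPS stimulus (called calycosin plus LPS), in 3 libraries per group that the labels call biological replicates. LPS is the bacterial outer membrane component that Toll-like receptor 4 senses, and calycosin is an isoflavone of Astragalus root. No group received calycosin without LPS, so calycosin was compared on LPS-treated cells.

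In macrophages, Toll-like receptor 4 starts the NF-κB pathway and, through the adaptor Trif, the production of interferon-beta. Secreted interferon then drives a second wave of genes through factors that bind interferon-stimulated response elements. TRIM proteins act on both sides of this loop. Some are themselves interferon-induced restriction factors, some tag sensors and kinases with ubiquitin, and others work in chromatin, the cytoskeleton or muscle.

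Libraries held 27784737 to 38524105 counts. Mitochondrial genes took 3.68% to 21.9% of the counts. In the vehicle group replicate 3 stood apart at 21.9%, against 3.79% and 3.68% in the other 2, and in the calycosin plus LPS group replicate 2 stood apart at 7.45%, against 17.2% and 19.4%. LPS libraries ranged from 13% to 14.7%. The part of this share in the results was not tested, but the counts of members and of the gene lists were repeated without these libraries. All 9 macrophage markers had counts in every library, summing to between 5183.73 and 5683.2 CPM (counts per 1000000, with library sizes scaled for composition) with vehicle and between 6551.08 and 6804.86 CPM with LPS. In the calycosin group they summed to 4373.24 to 4958.81 CPM. These sums join markers that moved in different directions. In the edgeR test described below, LPS raised 4 of the 9 (Mpeg1, Cd14, Ptprc and Spi1) and lowered 2 (Csf1r and Lyz2). Over all genes 27.3% were higher and 28.9% lower. Between calycosin plus LPS and LPS, 5 of the 9 were lower and 0 higher, with 12.9% and 16.1% over all genes. Of 15 markers of other cell types, 10 to 12 were at 0 in each library, and their sum was 1.14 to 1.27 CPM with vehicle, 4.49 to 6.44 CPM with LPS and 1.5 to 2.19 CPM with calycosin plus LPS. Cdh5, an endothelial cadherin, made most of that difference, at 0.354 ± 0.205, 4.76 ± 0.874 and 0.671 ± 0.0922 CPM in the same order (SD, n = 3), and its part in the results was not tested. In bulk RNA a change in the number of cells of a kind and a change in RNA per cell cannot be told apart.

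LPS changed 29 of the 42 members, with 17 higher (40.5%) and 12 lower (28.6%), in edgeR's quasi-likelihood test at a Benjamini-Hochberg adjusted p under 0.05. Among all genes tested, 56.3% were called, 27.3% higher and 28.9% lower. The share of higher members lay above the background, and the share of lower members was close to it. Trim30b, Trim30c and Trim30d passed the rule on summed counts only through LPS-treated libraries, and Trim63 and Trim65 only through vehicle libraries. Their direction therefore adds nothing to these shares, which beside the background are a description only. The same limit applies to the lists below that hold these members. By at least 2-fold, 15 members were higher and 9 lower, and the background shares were 16.3% and 17.3%. The median member changed by 0.09 on the log2 scale, against -0.07 for all genes. Vehicle and LPS libraries did not overlap in 31 of the 42 members and in 60.8% of all genes, so such separation was common. A separate fit on log2(TPM + 1), where TPM is transcripts per 1000000, called 13 members higher (31%) and 18 lower (42.9%), against 10.2% and 48.2% of all genes. On that scale the median of all genes was -0.61, a shift of -0.54, so directions of small changes differ between the scales. Leaving out both libraries that stood apart gave 19 higher and 13 lower members, with 4600 higher and 5239 lower among 14845 genes.

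Adding calycosin to LPS changed 18 members relative to LPS alone, with 10 higher (23.8%), 8 lower (19%) and 24 not called. The background was 29.1% called, 16.1% higher and 12.9% lower. Calls of at least 2-fold numbered 4 higher and 3 lower, with 7.05% and 4.42% of all genes. The median member changed by 0.09 on the log2 scale, against 0.02 for all genes. Calycosin plus LPS and LPS libraries did not overlap in 23 of the 42 members and in 49.7% of all genes. These counts fell when any 1 LPS or calycosin plus LPS library was left out, as did those over all genes. The number of higher members was 5, 6 and 6 without LPS replicate 1, 2 or 3, and 6, 8 and 5 without calycosin plus LPS replicate 1, 2 or 3. Lower members numbered 5, 4 and 4 without the respective LPS replicates and 3, 5 and 5 without the respective calycosin plus LPS replicates. Over all genes, the same fits lowered the higher calls from 2333 to between 1697 and 1952. The lower calls over all genes went from 1871 to between 1224 and 1520. The fit on log2(TPM + 1) called 7 higher (16.7%) and 1 lower (2.38%), against 9.85% and 2.32% of all genes, whose median was 0.25. Leaving out both libraries that stood apart gave 12 higher and 9 lower members, with 3063 higher and 2670 lower among 14845 genes. Only Trim2, Trim30d, Trim36 and Trim68 kept their call under each of the 22 alternatives run.

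**Figure D1:**
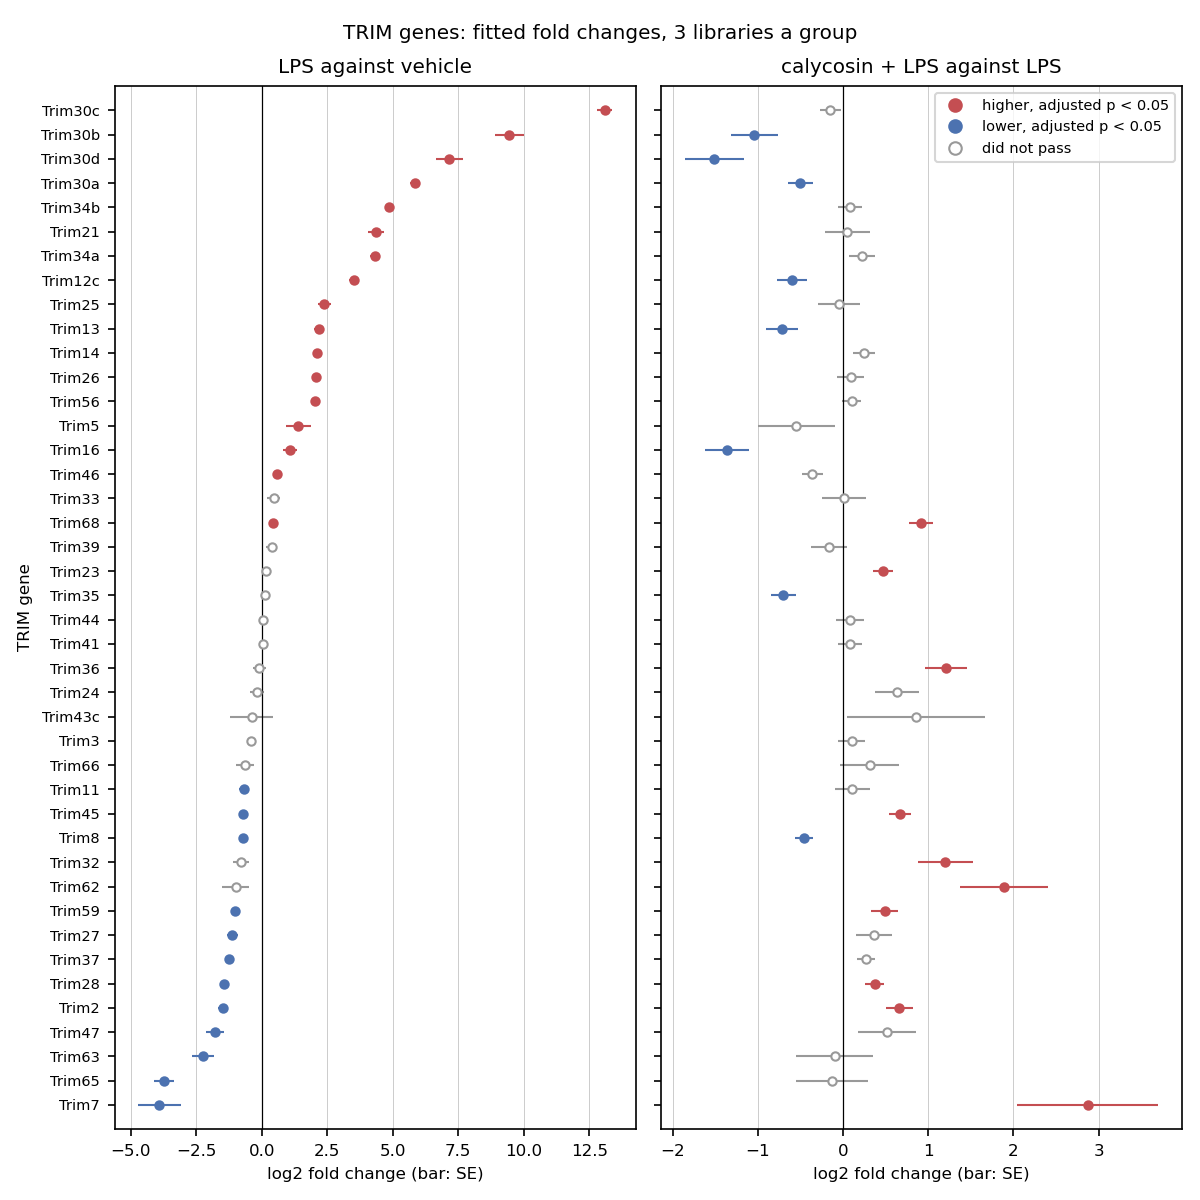
Log2 fold change of each of the 42 TRIM genes (points, with bars for standard errors), for LPS against vehicle on the left and calycosin plus LPS against LPS on the right, filled where the adjusted p was under 0.05; the 2 axes differ in scale. The LPS changes spread widely in both directions while those of calycosin lie closer to 0, and the points of Trim30b and Trim30c against vehicle depend on the prior count, because these genes had no vehicle count.

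The strongest rises were in a block of antiviral TRIM genes on chromosome 7. In the GRCm38 annotation 8 of them lie between 104244457 (the start of Trim34a) and 104507849 (the end of Trim30d). The 2 others lie apart from that block on the same chromosome, Trim21 at chr7:102557921-102565486 and Trim68 at chr7:102677582-102687327, both on the minus strand. These 10 are called the chromosome 7 group below. Trim3, Trim28 and Trim66 also lie on chromosome 7 but do not belong to it. LPS lowered Trim28, and Trim3 and Trim66 were not called. All 10 were higher with LPS, 9 of them by at least 2-fold, and their median change was 4.61 on the log2 scale. The same median was obtained with Trim30b and Trim30c placed at their lower bounds. Over all genes 27.3% were higher, and 16.3% were higher by at least 2-fold. Of 12 genes listed for this group, 10 passed the rule of 100 counts. Trim30b, Trim30c and Trim30d passed it only through LPS-treated libraries, so their rise adds nothing to this count or to the median. The list was chosen with earlier results of these data known, so its shares beside those of all genes are a description only. Between calycosin plus LPS and LPS, 4 of the 10 were lower and 1 was higher, with a median of -0.32. Over all genes 12.9% were lower and 16.1% higher. Of the 4 lower calls, those of Trim12c, Trim30a and Trim30b were lost in 8, 9 and 9 of 22 alternatives.

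Promoter windows from RefSeq (GRCm38.p6, 250 bases before to 50 after each annotated start) were matched for 32 of the 42 members, in 44 windows. Each was searched on both strands for 3 patterns. GAAA, any 2 bases and GAAA is the core of the interferon-stimulated response element. It stood in 9 of the 44 windows (20.5%), belonging to 8 members because Trim30a has a match at each of its 2 starts, and in 3.44% of all 32851 windows. TTCNNNGAA, the letters of a STAT dimer site, stood in 3 of the 44 (6.82%), those of Trim30c, Trim45 and Trim46, and in 8.3% of all windows. GGGA, any 2 bases and TTCC, an NF-κB pattern, stood only in a Trim28 window, and in 1.47% of all. Printed below are the stretches around the first pattern for the 8 members that hold it, because 6 of those members belong to the chromosome 7 group. Capitals mark the match, which reads TTTC, any 2 bases and TTTC where it lies on the opposite strand; each line runs 5′ to 3′ along the gene.
Trim30a, upstream of a start, chr7:104465195-104465254, minus strand: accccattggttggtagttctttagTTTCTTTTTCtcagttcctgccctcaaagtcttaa
Trim30d, chr7:104507856-104507915, minus strand: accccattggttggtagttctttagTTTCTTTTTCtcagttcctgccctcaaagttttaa
Trim12c, chr7:104353350-104353403, minus strand: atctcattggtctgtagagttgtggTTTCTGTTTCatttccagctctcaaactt
Trim5, chr7:104288121-104288180, minus strand: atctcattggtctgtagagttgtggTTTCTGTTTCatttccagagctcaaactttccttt
Trim34a, chr7:104244457-104244486, plus strand: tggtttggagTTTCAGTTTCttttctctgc
Trim21, chr7:102565450-102565479, minus strand: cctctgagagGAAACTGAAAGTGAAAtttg
Trim26, chr17:36836961-36837026, plus strand: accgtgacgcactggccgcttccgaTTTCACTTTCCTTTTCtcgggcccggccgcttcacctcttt
Trim2, chr3:84212791-84212820, minus strand: tcagctttggTTTCCTTTTCtctaagacag

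Over the 60 bases printed, the Trim30a and Trim30d stretches were identical at 59. The Trim12c and Trim5 stretches were identical at 52 of the 54 bases they share. Trim21 and Trim26 each held 2 overlapping matches. Of the 8 members with a match, 7 were higher and 1, Trim2, was lower with LPS, with a median change of 3.92 on the log2 scale. Over all genes 27.3% were higher. Trim30d, among these 7, passed the rule on summed counts only through LPS-treated libraries, so its rise adds nothing to this count or to the median. Trim34b, Trim30b, Trim30c, Trim25, Trim56, Trim13, Trim46 and Trim68 were also called higher, and these letters were not found in their windows. Trim14 and Trim16, called higher too, had no window.

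**Figure D2:**
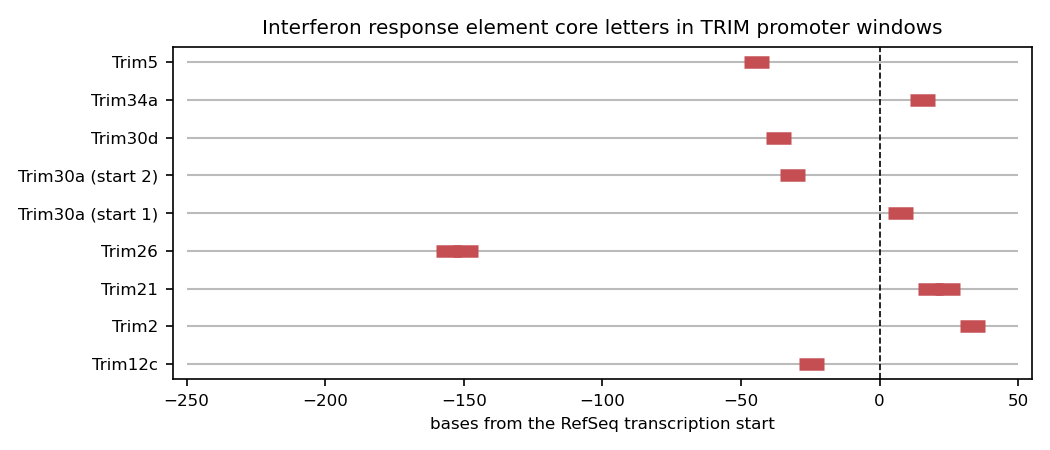
Positions of matches to the interferon response pattern (bars), in bases from the RefSeq start (dashed line), in the 9 promoter windows (grey lines) of TRIM members that hold it. Matches lie within 50 bases of the start in Trim12c, Trim5, Trim30a, Trim30d, Trim21, Trim34a and Trim2, and farther upstream in Trim26.

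Trim30a, whose product lowers NF-κB signalling after Toll-like receptor stimulation by acting on TAB2 and TAB3, is at chr7:104409025-104465193. It had 5.18, 5.41 and 7.85 CPM in the vehicle libraries, 343, 362 and 355 CPM with LPS, and 259, 228 and 264 CPM with calycosin plus LPS. All 3 groups were separate from each other. LPS raised it 57.7-fold (log2 change 5.85, SE 0.19, adjusted p = 1.26e-08). The level with calycosin plus LPS was 1.41-fold lower than with LPS (log2 change -0.50, SE 0.15, adjusted p = 0.0366). That call was lost in 9 of 22 alternatives, among them those without any 1 of the 6 LPS or calycosin plus LPS libraries, with a highest adjusted p of 0.576.

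The neighbouring Trim30d had 0.1, 0 and 0.182 CPM with vehicle, from 5, 0 and 6 counts. It reached 14.2, 10.2 and 13.7 CPM with LPS and 5.07, 3.9 and 4.4 CPM with calycosin plus LPS. Every library with calycosin lay below every library with LPS alone. The rise with LPS was 7.16 on the log2 scale (SE 0.52, adjusted p = 2.41e-06). The fall with calycosin was 2.85-fold (log2 change -1.51, SE 0.35, adjusted p = 0.011) and was called under all 22 alternatives. Trim30a and Trim30d, whose promoter letters are nearly the same in the lines above, differed widely in level, and both were lower with calycosin.

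Trim30b and Trim30c had no count in any vehicle library. Trim30c had 31.2, 32.9 and 31.6 CPM with LPS, at least 449-fold above the level that 3 counts per vehicle library would give, and 30.7, 27.1 and 28.6 CPM with calycosin plus LPS (adjusted p against LPS = 0.39). Trim30b had 2.82, 2.17 and 2.7 CPM with LPS, at least 36.1-fold above that floor. Its level with calycosin plus LPS was 1.03, 1.31 and 1.39 CPM, separate from LPS and 2.05-fold lower (log2 change -1.04, SE 0.28, adjusted p = 0.0272). That call was lost in 9 of 22 alternatives, among them those without LPS replicate 1 or 3 or any 1 calycosin plus LPS library (highest adjusted p 0.192). Of the 4 Trim30 genes, 3 were called lower with calycosin and Trim30c was not, and the difference between them was not tested.

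Trim12c and Trim5 belong to the group related to primate TRIM5, a restriction factor that binds retroviral capsids. Trim12c rose from 6.35, 6.7 and 9.7 CPM to 87.6, 91.6 and 79.7 CPM with LPS, an 11.4-fold change (log2 change 3.51, SE 0.20, adjusted p = 4.53e-07). Calycosin plus LPS left it at 57.9, 46.9 and 65.7 CPM, below all LPS libraries and 1.52-fold lower (log2 change -0.60, SE 0.18, adjusted p = 0.0319). That call was lost in 8 of 22 alternatives, among them those without any 1 LPS library or calycosin plus LPS replicate 1 or 2 (highest adjusted p 0.446). Trim5 was scarce, at 0.281, 0.247 and 0.335 CPM with vehicle and 0.911, 0.861 and 0.499 CPM with LPS, and its LPS call (log2 change 1.39, SE 0.47, adjusted p = 0.0281) was lost in 9 alternatives, among them those without replicate 1 or 2 of either group (highest adjusted p 0.438). In the annotated transcripts 24.2% of the 50-base windows of Trim12c also occur in Trim5, so reads may have been split between them.

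Trim34a and Trim34b, close copies of a further antiviral TRIM gene, rose together. Trim34b went from 1.33, 1.48 and 2.04 CPM to 44.6, 48.6 and 46 CPM with LPS, or 29-fold (log2 change 4.86, SE 0.17, adjusted p = 2e-08). Trim34a went from 1.04, 1.5 and 1.19 CPM to 25, 26.6 and 23.3 CPM (log2 change 4.32, SE 0.18, adjusted p = 4.91e-08). Neither was called between calycosin plus LPS and LPS (adjusted p = 0.3 for Trim34a and 0.71 for Trim34b), and the calycosin libraries were at 29.9, 31.7 and 25.4 CPM for Trim34a and at 49.3, 47.9 and 49.7 CPM for Trim34b. Trim34b shares 56.8% of its 50-base windows with Trim34a, so the split of reads between these 2 is uncertain.

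Trim21, the cytosolic antibody receptor that sends antibody-coated virus to the proteasome, had 5.44, 6.31 and 6.17 CPM with vehicle and 133, 82.3 and 153 CPM with LPS. The groups did not overlap, and the rise was 20.5-fold (log2 change 4.36, SE 0.30, adjusted p = 1.83e-06). With calycosin plus LPS it had 157, 83.4 and 140 CPM, overlapping the LPS libraries (adjusted p = 0.91).

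Trim68 had 7.77, 6.58 and 8.18 CPM with vehicle, 9.01, 10.5 and 10.7 CPM with LPS, and 17.6, 19.2 and 19.8 CPM with calycosin plus LPS. The small LPS change (log2 change 0.42, SE 0.14, adjusted p = 0.0236) was lost in 10 alternatives, among them those without vehicle replicate 1 or 2 or LPS replicate 2 or 3 (highest adjusted p 0.26). On the log2(TPM + 1) scale the sign turned to -0.38, still above the median of all genes there. The rise with calycosin was 1.88-fold over LPS (log2 change 0.91, SE 0.14, adjusted p = 0.00129), with all 3 libraries above every LPS library, and it kept its call under all 22 alternatives.

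**Figure D3:**
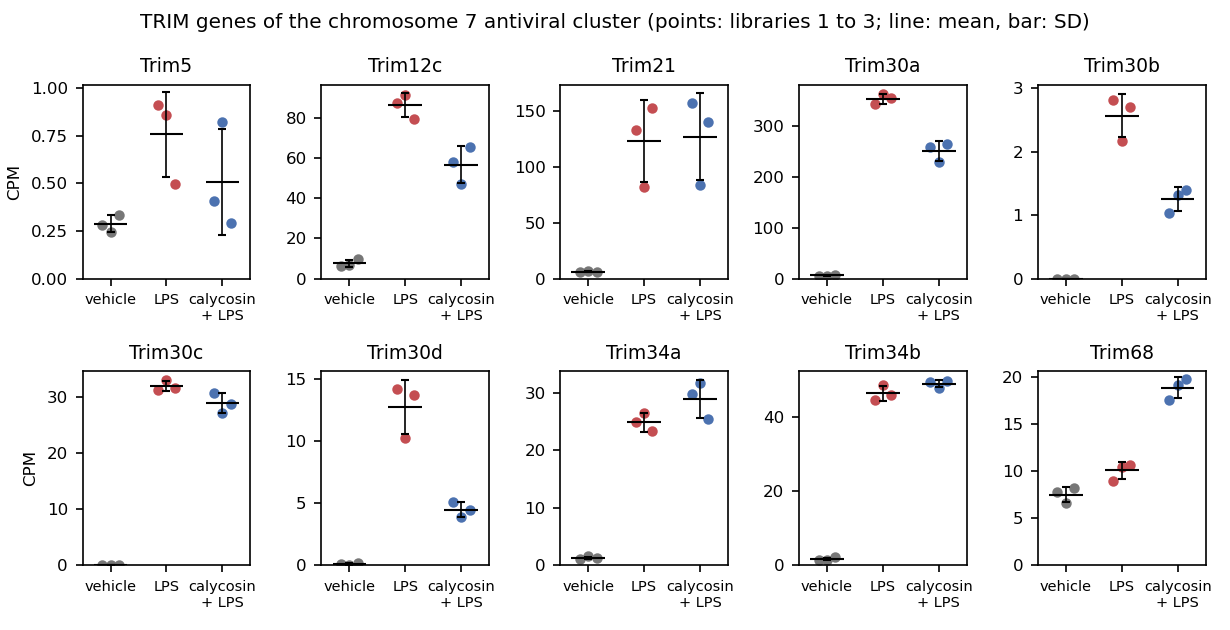
Level of the 10 TRIM genes of the antiviral chromosome 7 group in each of the 9 libraries, in CPM on a linear axis from 0 that differs between panels. Points are libraries, lines group means and bars SD over 3 libraries. Vehicle and LPS libraries do not overlap in any of these 10 genes, as in 60.8% of all genes tested. Trim30d, Trim30b, Trim30a and Trim12c sit lower with calycosin plus LPS while Trim68 sits higher.

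Outside chromosome 7, 16 members known to act on innate immune signalling moved both ways with LPS: 5 were higher and 5 lower, with a median change of 0.08 on the log2 scale. These shares, 31.2% each, lie close to the 27.3% and 28.9% over all genes. Trim25, the ligase that modifies the RNA sensor RIG-I, is at chr11:88999376-89020293. It had 146, 149 and 241 CPM with vehicle and 974, 1152.9 and 673 CPM with LPS, a 5.23-fold rise between groups that did not overlap (log2 change 2.39, SE 0.26, adjusted p = 4.27e-05). In the calycosin group it had 928, 755 and 1024.6 CPM, within the range of the LPS libraries (adjusted p = 0.9).

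Trim14, which lacks a RING and acts as an adaptor at the mitochondrial protein MAVS, rose from 21.5, 20.7 and 18 CPM to 82.7, 85.8 and 89.6 CPM, or 4.28-fold (adjusted p = 1.23e-06). It was not called against LPS with calycosin, at 101, 119 and 87 CPM (adjusted p = 0.19). Since 31.3% of its exonic bases lie opposite the expressed gene Nans and the counting strand is not given in the sources used here, some of its reads may be from Nans. Trim26, a ligase that acts on IRF3, rose 4.18-fold, from 29.5, 37.4 and 35.2 CPM to 178, 125 and 124 CPM (adjusted p = 4.51e-06). Trim56, which acts on the DNA-sensing adaptor STING, rose 4.03-fold, from 71.1, 69.9 and 71.4 CPM to 297, 307 and 252 CPM (adjusted p = 4.4e-07). Neither Trim26 nor Trim56 was called between calycosin plus LPS and LPS (adjusted p = 0.69 and 0.54).

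Trim13, an endoplasmic reticulum membrane ligase, rose from 4.16, 4.87 and 6.23 CPM to 18.9, 24.6 and 25.6 CPM, or 4.54-fold (log2 change 2.18, adjusted p = 1.27e-05). The calycosin libraries had 14.7, 11.5 and 15.7 CPM, below every LPS library (log2 change -0.72, adjusted p = 0.0199). That lower call was lost in 6 alternatives, among them those without LPS replicate 2 or 3 or calycosin plus LPS replicate 1 or 2 (highest adjusted p 0.288).

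On the falling side, Trim65, which modifies the RNA sensor MDA5, had 6.61, 5.86 and 6.57 CPM with vehicle and 0.501, 0.246 and 0.665 CPM with LPS. The groups were far apart, and the level was 13.4-fold lower (log2 change -3.75, SE 0.38, adjusted p = 2.57e-05). The calycosin libraries overlapped those with LPS, at 0.501, 0.235 and 0.583 CPM (adjusted p against LPS = 0.85). Trim8, a ligase linked to TAK1 and NF-κB, stepped down across the groups. Its mean ± SD over the 3 libraries of each group was 149 ± 18.6 CPM with vehicle, 88.7 ± 3.22 with LPS and 64.5 ± 2.44 with calycosin plus LPS. The first step had a log2 change of -0.74 (adjusted p = 0.000344) and the second one of -0.46 (adjusted p = 0.0135), which was lost in 5 alternatives, among them those without LPS replicate 2 or calycosin plus LPS replicate 1 or 3 (highest adjusted p 0.751). Trim27, also known as RET finger protein, was 2.18-fold lower with LPS (adjusted p = 0.00155), and Trim59 was 2.04-fold lower (adjusted p = 0.000456). Exons of Trim65 and its neighbour Trim47 overlap on the same strand by 3.8% and 8.2% of their bases, and 14.2% of the 50-base windows of Trim13 recur in Gm9359.

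Among the chromatin members, the TIF1 cofactors Trim24, Trim28 and Trim33 and the related Trim66, LPS lowered 1 of 4 and raised 0, or lowered 1 and raised 1 without both libraries that stood apart. Over all genes 28.9% were lower and 27.3% higher. Trim28, the corepressor KAP1 that KRAB zinc finger proteins recruit to silence repeats, had 175, 169 and 153 CPM with vehicle and 62, 58.2 and 63.9 CPM with LPS. The 2.7-fold fall separated all libraries (log2 change -1.43, SE 0.11, adjusted p = 4.48e-06). With calycosin plus LPS it had 73.2, 88.9 and 75.3 CPM, above every LPS library (log2 change 0.37, adjusted p = 0.0347), but this call was lost in 11 of 22 alternatives, among them those without any 1 of these 6 LPS-treated libraries (highest adjusted p 0.175). Trim24 had 9.32, 9.99 and 19.1 CPM with vehicle and 11.4, 11.9 and 10.2 CPM with LPS (adjusted p = 0.55). Trim33 had 89.8, 86.2 and 165 CPM with vehicle and 165, 167 and 135 CPM with LPS (adjusted p = 0.16). In both, vehicle replicate 3, the library with 21.9% mitochondrial counts, was well above the other 2. Without it LPS raised Trim33 by 0.77 on the log2 scale (adjusted p = 0.00438), and Trim24 was 0.65 higher with calycosin plus LPS than in LPS alone (adjusted p = 0.00347). With the mitochondrial share as a covariate LPS lowered Trim24 (-0.31, edgeR adjusted p = 0.0284) and raised Trim33 (0.31, adjusted p = 0.00671). By TPM the Trim33 mean was 44 with vehicle and 37.3 with LPS. Trim66 had 4.72, 2.06 and 3.86 CPM with vehicle, 2.23, 2.26 and 2.28 CPM with LPS (adjusted p = 0.13), and 3.44, 1.78 and 3.21 CPM with calycosin plus LPS (adjusted p against LPS = 0.54). Without vehicle replicate 2 LPS lowered Trim66 (-0.97, edgeR adjusted p = 0.0271). The fit on log2(TPM + 1) called Trim24 and Trim66 lower with LPS (-0.74 and -0.69, limma adjusted p = 0.012 and 0.00216). On that scale 48.2% of all genes were lower, with a median of -0.61.

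Trim7 fell from 1.85, 1.97 and 2.04 CPM with vehicle to 0, 0.369 and 0 CPM with LPS (adjusted p = 0.00244). Only 9 counts, all in LPS replicate 2, carried the LPS level, and the fitted log2 change moved from -3.91 to -9.11 without that library, so its size is not given as a result. It had 1.28, 0.727 and 0.842 CPM with calycosin plus LPS, above every LPS library, and the call against LPS (adjusted p = 0.0277) was lost in 6 alternatives, among them those without replicate 1 or 3 of either group (highest adjusted p 0.0826). Trim2, a ligase known from neurons with NHL repeats, fell from 18.2, 19.8 and 24.5 CPM to 7.38, 8.41 and 6.19 CPM with LPS, or 2.84-fold (log2 change -1.50, SE 0.16, adjusted p = 3.64e-05). With calycosin plus LPS it had 11.9, 10.9 and 11.9 CPM, between the other 2 groups and 1.58-fold above LPS (log2 change 0.66, SE 0.16, adjusted p = 0.0138). This rise was called in all 22 alternatives. By role lists, LPS lowered 1 of 3 NHL-repeat members and calycosin raised 2 of 3, while of 3 cytoskeletal members LPS raised 1 and lowered 1. With LPS these shares of 33.3% lie near the 28.9% lower and 27.3% higher over all genes, and without both libraries that stood apart 2 of the 3 NHL-repeat members were lower. Between calycosin plus LPS and LPS, 16.1% of all genes were higher. Of the 2 NHL-repeat rises there, that of Trim32 was lost in 3 alternatives. Trim37, a ligase of centrosome control, was 2.42-fold lower with LPS (adjusted p = 1.06e-05), and Trim47 was 3.44-fold lower (adjusted p = 0.00141). Trim63, the muscle ligase MuRF1, was scarce, at 2.09, 2.41 and 1.55 CPM with vehicle and 0.546, 0.164 and 0.582 CPM with LPS, a 4.68-fold fall (adjusted p = 0.00136). That call was lost when only libraries above 10% mitochondrial counts were kept (adjusted p = 0.0626).

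Some members differed between calycosin plus LPS and LPS with no call for LPS itself in the main fit. Trim36 had 2.49, 2.08 and 3.25 CPM with vehicle, 2.37, 2.99 and 1.91 CPM with LPS, and 5.57, 4.76 and 6.48 CPM with calycosin plus LPS. The calycosin libraries lay above all 6 others, 2.31-fold over LPS (log2 change 1.21, SE 0.25, adjusted p = 0.00597), and the call held in each of the 22 alternatives. Both fits on the TPM scale called Trim36 lower with LPS (-0.43 and -0.81, limma adjusted p = 0.0238 and 0.031), where 48.2% of all genes were lower. Trim35, a ligase known from blood cells that had the highest mean TPM with vehicle, had 237, 232 and 172 CPM with vehicle and 241, 231 and 223 CPM with LPS. It dropped to 124, 163 and 140 CPM with calycosin plus LPS, 1.63-fold below LPS (log2 change -0.70, SE 0.15, adjusted p = 0.00748), and the call was lost in both fits on the TPM scale. With the mitochondrial share as a covariate LPS raised Trim35 (0.23, edgeR adjusted p = 0.0246).

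Trim32, an NHL-repeat ligase that also acts on STING, had 31.3, 29.8 and 31.8 CPM with vehicle, a wide 8.65, 26.7 and 18 CPM with LPS, and 43.7, 34.1 and 44.7 CPM with calycosin plus LPS. Its vehicle and LPS groups did not overlap but missed the threshold (adjusted p = 0.056), and without LPS replicate 2 LPS lowered it (adjusted p = 0.00823). The 2.29-fold difference between the last 2 groups (log2 change 1.20, SE 0.32, adjusted p = 0.0202) was lost without LPS replicate 3 or calycosin plus LPS replicate 1 or 3, with a highest adjusted p of 0.0607. Trim62 had 0.783, 0.699 and 0.912 CPM with vehicle and 0.182, 0.328 and 0.665 CPM with LPS (adjusted p = 0.129). It had 0.689, 1.88 and 1.85 CPM with calycosin plus LPS (log2 change against LPS 1.89, SE 0.52, adjusted p = 0.0225). This call against LPS was lost in 7 alternatives, among them those without LPS replicate 1 or 2 or calycosin plus LPS replicate 2 or 3 (highest adjusted p 0.0894). LPS lowered Trim62 without LPS replicate 3 (-1.61, edgeR adjusted p = 0.0454) and on the log2(TPM + 0.1) scale (-1.42, limma adjusted p = 0.0216). Trim23, which carries an ARF GTPase domain, had 17.1 ± 0.673 CPM with LPS and 23.7 ± 1.61 CPM with calycosin plus LPS (SD, n = 3 libraries per group), a log2 change of 0.47 with an edgeR adjusted p of 0.0173. It was lost in 5 alternatives, among them those without LPS replicate 1 or 2 or calycosin plus LPS replicate 3 (highest adjusted p 0.0809). Trim45 had 11.7 ± 1.2 CPM with vehicle, 7.19 ± 0.394 with LPS and 11.4 ± 0.706 with calycosin plus LPS. It fell with LPS (log2 change -0.71, adjusted p = 0.00134) and rose with calycosin (0.67, adjusted p = 0.00503), the latter not on the TPM scales.

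Trim16, which lacks a RING, had 6.67, 4.17 and 3.83 CPM with vehicle, 8.56, 13.5 and 8.85 CPM with LPS and 3.48, 4.32 and 4.21 CPM with calycosin plus LPS. LPS raised it by 1.07 on the log2 scale (adjusted p = 0.0059), and calycosin brought it 2.58-fold below the LPS level (log2 change -1.36, SE 0.26, adjusted p = 0.00448). Both calls were lost in the fits on the TPM scale. Trim46, an axonal microtubule organiser, rose by 0.57 with LPS in the count model (adjusted p = 0.00283) but had a change of -0.22 on the log2(TPM + 1) scale, also above the median of all genes there. Of its exonic bases 6.3% lie opposite the abundant gene Krtcap2. Trim11 was lower with LPS by 1.6-fold (adjusted p = 0.0157), a call lost without LPS replicate 1 and with only libraries above 10% mitochondrial counts (highest adjusted p 0.261). Trim3, Trim39, Trim41, Trim43c and Trim44 were called in neither comparison, with adjusted p-values between 0.0608 and 0.84. Some were called in alternatives: with LPS, Trim3 was lower without vehicle replicate 3 (adjusted p = 0.0155) or LPS replicate 1 (0.0397), and Trim39 was higher without LPS replicate 3 (0.0467). Trim44 was higher in both comparisons without both libraries that stood apart (adjusted p = 0.0189 and 0.0318), but lower with LPS on the TPM scales.

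**Figure D4:**
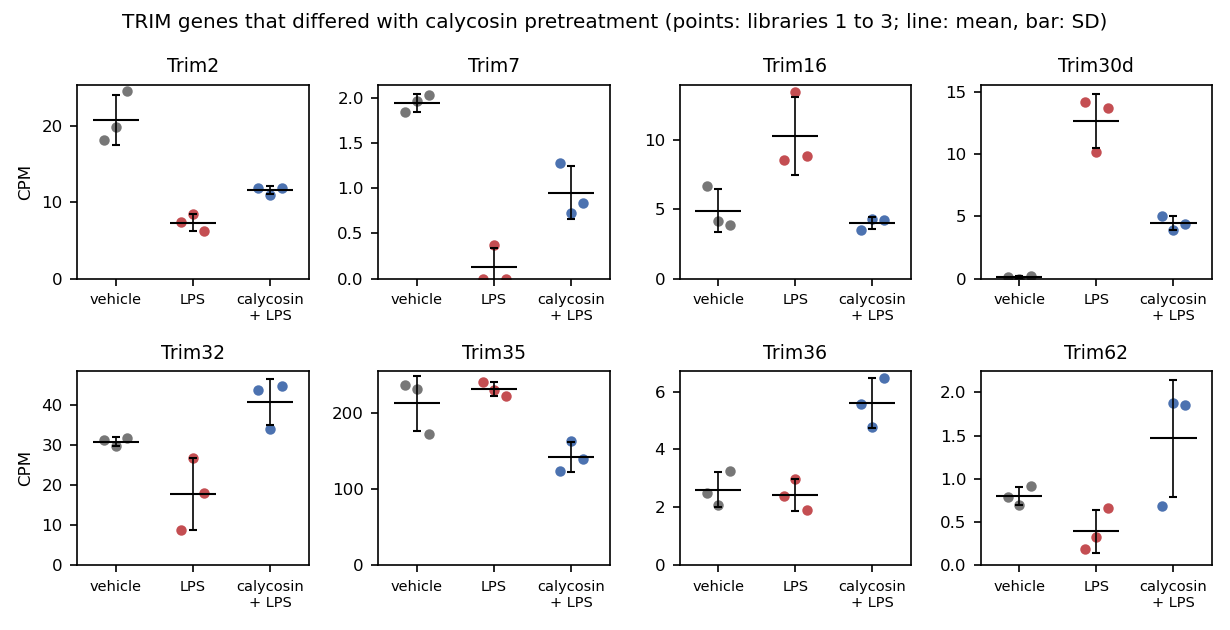
Level in each library, in CPM on a linear axis from 0, of 8 TRIM genes called between calycosin plus LPS and LPS; points are libraries, lines group means and bars SD over 3 libraries, and each panel has its own axis. Trim36 with calycosin plus LPS lies above all LPS and vehicle libraries, Trim35 lies below them, and Trim2 and Trim7 lie between LPS and vehicle.

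Against vehicle, calycosin plus LPS changed 27 members, with 16 higher (38.1%) and 11 lower (26.2%). In the background 49% were called, 25.4% higher and 23.6% lower. By at least 2-fold, 15 were higher and 5 lower, with 13.5% and 11.9% in the background. The median member changed by 0.42 on the log2 scale, against 0 for all genes. Calycosin plus LPS and vehicle libraries did not overlap in 29 of the 42 members and in 56.2% of all genes. This comparison shares its libraries with the other 2, so it is given as values only. For the 15 members raised at least 2-fold by LPS, the change left with calycosin was a median 97.9% of the LPS change on the log2 scale, from -27.2% for Trim16 to 111.9% for Trim14, and 11 of them kept at least 80%. With Trim30b and Trim30c at their lower bounds the median was again 97.9%, but Trim30b stood at 79.8% and 10 members kept at least 80%. For the 9 lowered at least 2-fold the median was 70.8%, from 26.6% for Trim7 to 104.4% for Trim63, and 2 kept at least 80%. Without LPS replicate 2, which holds all LPS counts of Trim7, that gene stood at 11.3% and the median was 72.1%. The 2 medians were not tested against each other.

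Summed over the family, the CPM level was 1472.2 to 1645.8 with vehicle, 2822.1 to 3346.1 with LPS and 2735.9 to 3134.7 with calycosin plus LPS. By TPM, which sets genes against each other per length, the sum was 699 to 1175.2 with vehicle, 1080.6 to 1143.1 with LPS and 1161.4 to 1607.8 with calycosin plus LPS, so the vehicle and LPS ranges overlap on that scale. The makeup changed. The genes of the antiviral chromosome 7 group held 2.68%, 2.67% and 3.16% of the family's TPM with vehicle, 27.5%, 26% and 30.8% with LPS, and 26.7%, 23.1% and 25.7% with calycosin plus LPS. Chromatin members held 18.5%, 18.4% and 19.3% with vehicle and 6.39%, 6.02% and 6.24% with LPS, as well as 7.34%, 7.07% and 7.43% with both agents. Trim28 made most of that fall, from a mean of 134 TPM with vehicle to 27 with LPS, while Trim33 went from 44 to 37.3. Members acting on innate signalling kept a share between 54.7% and 61.1% in all 9 libraries, though single members moved both ways. With LPS the mean of Trim25 rose from 73.3 to 222 TPM, while Trim35 fell from 142 to 84.3 and Trim8 from 104 to 36.1.

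**Figure D5:**
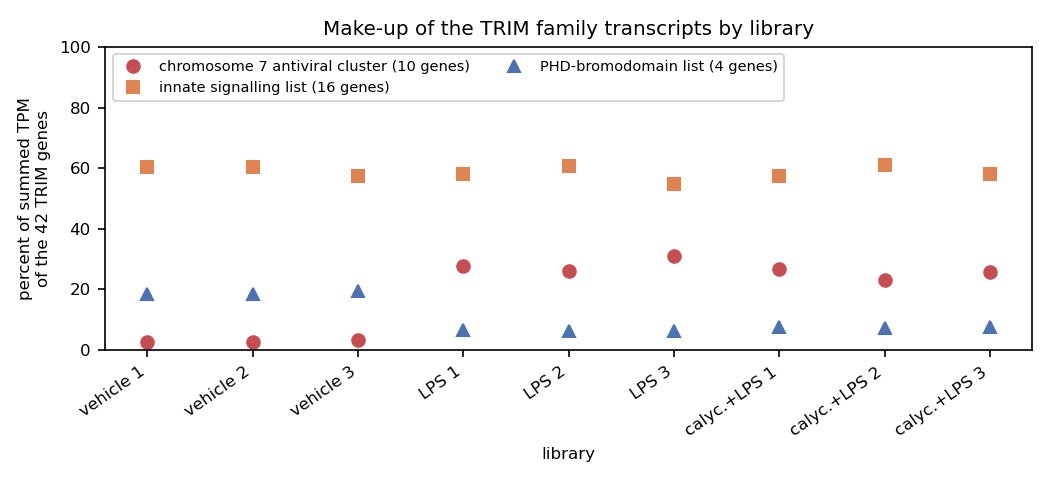
Share of the TRIM family's summed TPM held by 3 groups of members, in percent, in each of the 9 libraries (1 point a library and group). The genes of the antiviral chromosome 7 group take 2.67% to 3.16% with vehicle and 23.1% to 30.8% in the other 6 libraries. The PHD-bromodomain (chromatin) members take 18.4% to 19.3% with vehicle and 6.02% to 7.43% in the others. The innate signalling members stay between 54.7% and 61.1%.

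The order of the members by TPM changed with LPS. With vehicle the highest were Trim35 (142 ± 56.5 TPM, SD, n = 3), Trim28 (134 ± 48.1), Trim8 (104 ± 19.8) and Trim25 (73.3 ± 3.29). Of these neighbours only Trim8 had its lowest library above the highest library of the next gene. With LPS the order was Trim25 (222 ± 51.4 TPM), Trim30a (125 ± 5.66), Trim14 (86 ± 4.1), Trim35 (84.3 ± 2.13), Trim26 (70.3 ± 4.56) and Trim21 (67.8 ± 15.2). Here Trim25, Trim30a and Trim35 were each separate from the next gene in this way. In the calycosin group it was Trim25 (268 ± 15.6 TPM), Trim14 (135 ± 50.3), Trim30a (112 ± 14.4), Trim26 (93.6 ± 22.7) and Trim21 (86.7 ± 13.9), and only Trim25 had its lowest library above the highest of the next gene.

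The genes that work with TRIM proteins were taken as lists. Of 9 tested interferon signalling genes, 8 were higher with LPS and 0 lower (88.9% and 0%), with a median change of 2.11 on the log2 scale. Over all genes 27.3% were higher and 28.9% lower with LPS. In calycosin plus LPS against LPS, 1 was higher and 2 were lower (11.1% and 22.2%), with a median of 0.00. Over all genes these shares were 16.1% and 12.9%. Ifnb1, the gene of interferon-beta, had a mean of 0.0134 CPM with vehicle, 3.9 ± 1.04 with LPS and 5.47 ± 1.07 with calycosin plus LPS (SD, n = 3; edgeR adjusted p between the last 2 = 0.28). Stat2, a factor that carries the interferon signal to the nucleus, rose by 3.83 on the log2 scale with LPS. Irf1, a transcription factor that binds interferon-stimulated response elements, rose further with calycosin (log2 change 0.80, adjusted p = 0.0021). It was the only gene of this list called higher there. Of 19 sensors, adaptors and kinases on which TRIM proteins act, 12 were higher and 4 lower with LPS (63.2% and 21.1%). Against LPS alone, the calycosin group had 2 of them higher and 7 lower (10.5% and 36.8%). In the main fit the shares of lower genes with LPS and of higher genes with calycosin were below those over all genes. Without both libraries that stood apart, 5 were higher and 7 lower with calycosin, with 3063 higher and 2670 lower among 14845 genes. There the share of higher genes on this list lay above that over all genes. Ifih1, which encodes the MDA5 sensor that Trim65 modifies, rose by 6.62 on the log2 scale with LPS while Trim65 fell. Irf7, the interferon regulatory factor that amplifies the response, rose by 6.03 with LPS and was also lower with calycosin (-0.86, adjusted p = 0.00064). The largest fall of this list with calycosin was that of Nod2 (-1.16, adjusted p = 0.000242). Mavs, the adaptor that Trim14 joins, was 1 of the 2 called higher there. It fell by 1.04 with LPS and was 0.92 higher when calycosin was added.

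E2 enzymes pass ubiquitin or its relatives to RING ligases. Of 10 tested, 8 were higher and 0 lower with LPS, and 0 were higher and 1 was lower with calycosin plus LPS against LPS. Without both libraries that stood apart the latter counts were 1 higher and 4 lower, with 3063 higher and 2670 lower among 14845 genes. In the main fit 27.3% of all genes were higher and 28.9% lower with LPS, and 16.1% and 12.9% with calycosin plus LPS against LPS. Ube2l6, the E2 of the interferon-induced modifier ISG15, had 27.5 ± 10.2 CPM with vehicle, 187 ± 15.6 with LPS and 120 ± 8.82 with calycosin plus LPS. Of 4 family members under other symbols, Pml (TRIM19) and Mid1 (TRIM18) were tested, and both rose with LPS. Pml, the organiser of nuclear bodies, had 22.5 ± 6.89 CPM with vehicle, 303 ± 17.9 with LPS and 247 ± 3.89 with calycosin plus LPS (log2 change with LPS 3.75). Mid1, a microtubule-bound ligase, rose by 3.90 with LPS and changed by -0.75 when calycosin was added (adjusted p = 0.022).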

How the data were processed

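RNA-seq libraries of 3 groups, 3 each, were analysed. Per the submitters' processing notes, reads were handled with Trimmomatic 0.36, HISAT2 2.0 and StringTie 1.3.3b on mm10; for the counter, its strand setting and its handling of reads with several matches, nothing was given in the sources used here. The authors deposited raw counts per gene, which entered all tests, and TPM values, which served to set genes against each other. Gene positions are from GENCODE M21 (GRCm38).

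edgeR 4.0.16 (R 4.3.3; TMM scaling, its default low-count filter, quasi-likelihood test over all 3 groups) was fitted on 14458 genes, with Benjamini-Hochberg adjustment over all of them. CPM are counts per 1000000 after TMM scaling (factors 0.786 to 1.42). The floor of 3 counts per library lay between 0.0602 and 0.137 CPM and covers counting error only. An exact permutation test of 3 against 3 libraries cannot go below p = 0.1, so none is used for single genes. Values per library are given for members called with at least a 2-fold change whose higher group averaged at least 1 CPM (up to 12 for LPS and 10 for calycosin). They are also given for all members of the antiviral chromosome 7 group, all chromatin members and the 3 with the highest mean TPM. Other names, including Trim7 against LPS, Irf1, Mavs and Nod2, were chosen after their values were seen.

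The members and lists were chosen with earlier results of these data known. Alternatives were DESeq2 1.42.0, upper-quartile scaling, no filter, limma 3.58.1 on log2(TPM + 1) and log2(TPM + 0.1), a replicate block, and leaving out libraries. Only the edgeR fit was tested on simulated counts, in which far fewer genes changed than were called here. That test does not show how the scaling behaves in these data. Proteins were not compared here; shared 50-base windows of annotated transcripts were used instead. A further gene of the interferon list is part of its counts but is not reported here by itself.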

Additional observations from a re-analysis of the deposited data

How the results depend on the processing

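Of the 29 members called for LPS against vehicle, 23 kept their call under all 22 alternatives, and 6 (Trim5, Trim11, Trim16, Trim46, Trim63 and Trim68) lost it in some. For calycosin plus LPS against LPS 4 of 18 kept it in all, and for calycosin plus LPS against vehicle 20 of 27 did. On the log2(TPM + 1) and log2(TPM + 0.1) scales, Trim46 changed with LPS by -0.22 and -0.23, and Trim68 by -0.38 and -0.42. Members lower with LPS numbered 19 on the second of these scales. Members lower with calycosin against LPS numbered 1 on each of them and 5 with no filter on low counts, where more genes were tested. The cause of the other differences was not tested. The median of all genes shifted by -0.54 and -0.75 on the TPM scales and by -0.21 with upper-quartile scaling for LPS against vehicle, and by 0.23 and 0.32 on the TPM scales for calycosin plus LPS against LPS.

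Leaving out 1 library at a time gave 15 to 18 higher and 12 to 13 lower members for LPS against vehicle, 5 to 13 and 3 to 9 for calycosin plus LPS against LPS, and 16 to 18 and 9 to 12 for calycosin plus LPS against vehicle. The lowest counts in the second comparison came without an LPS or a calycosin plus LPS library, and the highest without vehicle replicate 3. Calls over all genes in that comparison also ranged, from 2928 without calycosin plus LPS replicate 1 to 5740 without vehicle replicate 3. Of 2 alternatives chosen after seeing the data, a covariate for the mitochondrial share gave 14 higher and 9 lower for calycosin plus LPS against LPS. Keeping only libraries above 10% mitochondrial counts gave 6 lower members for calycosin plus LPS against vehicle, where vehicle replicate 3 alone stands for its group and is assumed to vary like the other groups. The median share of the LPS change left with calycosin was 96% with DESeq2 and 99.4% without both libraries that stood apart for raised members, and 73.1% and 80.7% for lowered members.

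Same-numbered replicates did not deviate together: 2 of 9 pairs had a correlation over 0.1, and 0 of 9 libraries correlated best with their own number in both other groups. With the replicate number as a block, the pairing fit called 17 higher and 12 lower, 7 and 7, and 16 and 11 members in the 3 comparisons.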
